A study of Mus musculus with 9 samples.

Results

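The Cyp2c cluster on mouse chromosome 19 encodes cytochrome P450 enzymes of subfamily 2C, and its circular RNAs (circRNAs) were followed here in liver. A circRNA was taken as a member when its probe was named by position and its whole span lay on chromosome 19 between 39070000 and 40270000 (genome build mm9). Of 30534 circRNAs on the array, 14043 were named by position and 5 met this rule. All 5 lay in the stretch from 40228000 to 40262000, which the rule gives as the approximate place of Cyp2c70, and none lay elsewhere in the window. The other 9 genes listed for the cluster (Cyp2c29, Cyp2c37, Cyp2c38, Cyp2c39, Cyp2c40, Cyp2c50, Cyp2c54, Cyp2c67 and Cyp2c68) were therefore not represented by a position-named circle, and the results below concern the Cyp2c70 interval alone. The remaining 16491 circRNAs carry code names without a position and could not be placed. The rule itself uses position, but the window was selected on the differences between groups seen on these same arrays. The differences are therefore given as a description, and the p-values and counts only place the circles within the fit over all circRNAs and support nothing about them. Partner probes and ratios come from the same arrays and are read in the same way.

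Livers came from 20-week-old males of the inbred mouse strain C57BL/6J. Metformin mice ate a high fat diet (45% of energy from fat) for 17 weeks and received 3 mg of metformin, a biguanide that lowers blood glucose, per kg of body weight daily by gavage over the last 5 weeks. High fat diet mice had the same food with saline gavage over those 5 weeks, and control mice ate chow for 17 weeks with no gavage listed, so that in any comparison with control the diet and the gavage cannot be told apart. Each group had 3 arrays, each array held RNA pooled from 4 mice, and the RNA had been treated with RNase R, an exonuclease that removes linear RNA.

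Cytochrome P450 enzymes of subfamily 2C sit in the endoplasmic reticulum of hepatocytes and oxidise drugs, steroids and fatty acids. In mouse liver, Cyp2c70 makes the muricholic acids, hydrophilic bile acids that set the mouse bile acid pool apart from the human one. Several of the other members, among them Cyp2c29, Cyp2c38 and Cyp2c40, oxidise arachidonic acid. A circRNA forms when a splice donor is joined back to an acceptor that lies upstream of it, and the junction is what distinguishes the circle from the linear transcript of the same gene. In the RefSeq gene table (GRCm38.p6) Cyp2c70 is the last protein-coding Cyp2c gene of the cluster, between Cyp2c50 and Pdlim1, and its promoter is on the minus strand.

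The files give no probe or junction sequence, so the sequence shown is the RefSeq promoter of Cyp2c70, the gene whose approximate place in the rule holds all 5 circles. Any part of this promoter in their levels was not tested. The sequence covers chr19:40187237-40187536 on the minus strand of GRCm38.p6, 250 bases before to 50 bases after the start of the gene. Capitals mark the matches to the motifs searched on both strands.
Cyp2c70 promoter: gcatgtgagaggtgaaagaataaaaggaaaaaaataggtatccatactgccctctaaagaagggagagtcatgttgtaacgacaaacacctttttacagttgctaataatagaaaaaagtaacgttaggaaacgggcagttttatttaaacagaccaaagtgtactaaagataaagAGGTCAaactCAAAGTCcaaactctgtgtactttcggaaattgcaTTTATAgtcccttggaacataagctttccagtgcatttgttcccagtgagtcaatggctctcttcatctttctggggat
The first stretch in capitals is the nuclear receptor half-site AGGTCA at base 177, the next is CAAAGTC, a core of the sites bound by the hepatocyte factor HNF4A, at base 187, and the last is the TATA box TATAAA read on the opposite strand at base 222. They do not overlap. The HNF1 half-site GTTAAT, the other motif searched, had no match in this window. Of 32851 promoters in the table, 4.44% held CAAAGTC, 16.3% AGGTCA, 13.6% TATAAA and 7.10% GTTAAT. Among 13 Cyp2c genes from Cyp2c55 to Cyp2c70 with a promoter in the table, CAAAGTC was found in 10, TATAAA in 10, AGGTCA in 3 and GTTAAT in 3. These genes are of the same subfamily, and how alike their promoters are was not examined, so the counts are not read as enrichment. A match describes letters and does not show that a factor binds there.

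The 5 circles were nested and shared the end at 40242113. Their starts lay at 40228009, 40228021, 40231213, 40235045 and 40238842, which gives spans of 14104, 14092, 10900, 7068 and 3271 bases (the end minus the start in the probe name). Circles are called by these spans below. The longest 2 differed by 12 bases in their start, and the further starts followed at steps of 3192, 3832 and 3797 bases. Since the promoter of Cyp2c70 is on the minus strand, the shared high coordinate would be the upstream end of each circle if the circles were transcribed from that strand, but the probe names give no strand. Sharing an end this often was uncommon among the circles named by position. Only 11 end positions were shared by 5 or more position-named circles, with 60 circles among them (0.427% of those named by position) and 7 circles at most on 1 end. Start positions shared by 5 or more also numbered 11. The nearest position-named circles outside the window lay at 39019881 to 39039973 and 39014961 to 39020063 on the low side, neither of them well above background on any array, and at 40386159 to 40402112 and 40386159 to 40411525 on the high side, both well above background on all 9 arrays.

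**Figure D1:**
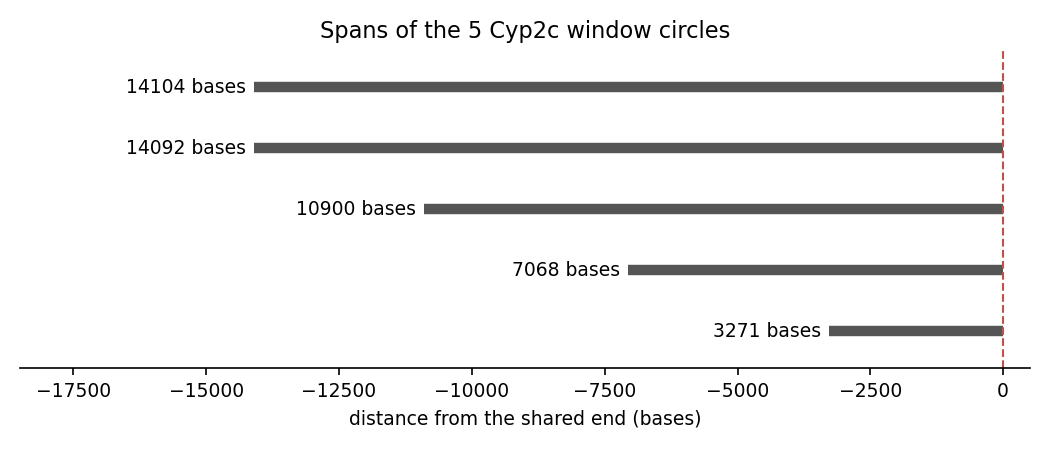
Spans of the 5 circles, drawn as bars by distance in bases from the end they share (dashed line at 0). The 14104 and 14092 base circles differ only by 12 bases at the left edge, and the others are nested within them.

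All 5 circles and their 5 partner probes were well above background on all 9 arrays, so none was lost to the filter on dim probes. A partner probe bears the name of its circle with the ending _neg. Its design target is not stated in the labels or headers, and it serves here as a second probe paired with each circle. Levels are log2 values above the 75th percentile of each array. On this scale the 10900 base circle averaged 3.73 over the 9 arrays, which was brighter than 97.8% of the 25864 circRNAs that passed the filter. The 3271 base circle averaged 1.76 and was brighter than 87.3%. These ranks describe probe signal and give no order of abundance, since probes differ in affinity.

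By group mean, the 5 circles were lowest with metformin, intermediate on the high fat diet and highest in controls. The metformin and high fat diet pools spread widely and overlapped. The mean level over the 5 circles was 2.25 ± 0.598 with metformin, 2.59 ± 0.596 on the high fat diet and 3.36 ± 0.318 in controls (SD, n = 3 pools each). By array this mean was 2.66, 2.53 and 1.56 in metformin replicates 1, 2 and 3, 2.56, 3.21 and 2.01 in high fat diet replicates 1, 2 and 3, and 3.03, 3.66 and 3.41 in control replicates 1, 2 and 3. In bulk liver RNA, fewer cells of a type and less RNA per cell cannot be told apart. All 3 metformin pools lay below all 3 control pools, and high fat diet replicate 2 lay above control replicate 1.

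The 10900 base circle had levels of 3.598, 3.51 and 2.84 with metformin, 3.52, 4.21 and 3.08 on the high fat diet, and 3.97, 4.46 and 4.36 in controls. High fat diet replicate 2 exceeded control replicate 1, and the other fat-fed pools lay below every control. The 7068 base circle stood at 2.81, 2.67 and 1.56 with metformin, 2.63, 3.43 and 2.13 on the high fat diet, and 3.21, 3.96 and 3.51 in controls. Its metformin pools did not overlap its controls, and high fat diet replicate 2 again lay within the control range.

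The 14092 base circle had levels of 2.81, 2.597 and 1.86 with metformin, 2.700, 3.06 and 2.26 on the high fat diet, and 3.08, 3.604 and 3.61 in controls. It was the 1 circle of the 5 in which all high fat diet pools lay below all controls, by a margin of 3.06 against 3.08. The 14104 base circle stood at 2.45, 2.33 and 1.098 with metformin, 2.29, 2.88 and 1.72 on the high fat diet, and 2.82, 3.46 and 3.17 in controls. The 3271 base circle had the widest spread, at 1.63, 1.53 and 0.456 with metformin, 1.67, 2.45 and 0.876 on the high fat diet, and 2.04, 2.803 and 2.38 in controls. In each of the 5 circles metformin replicate 3 was the lowest array of all 9 and high fat diet replicate 2 the highest of the 6 fat-fed arrays.

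**Figure D2:**
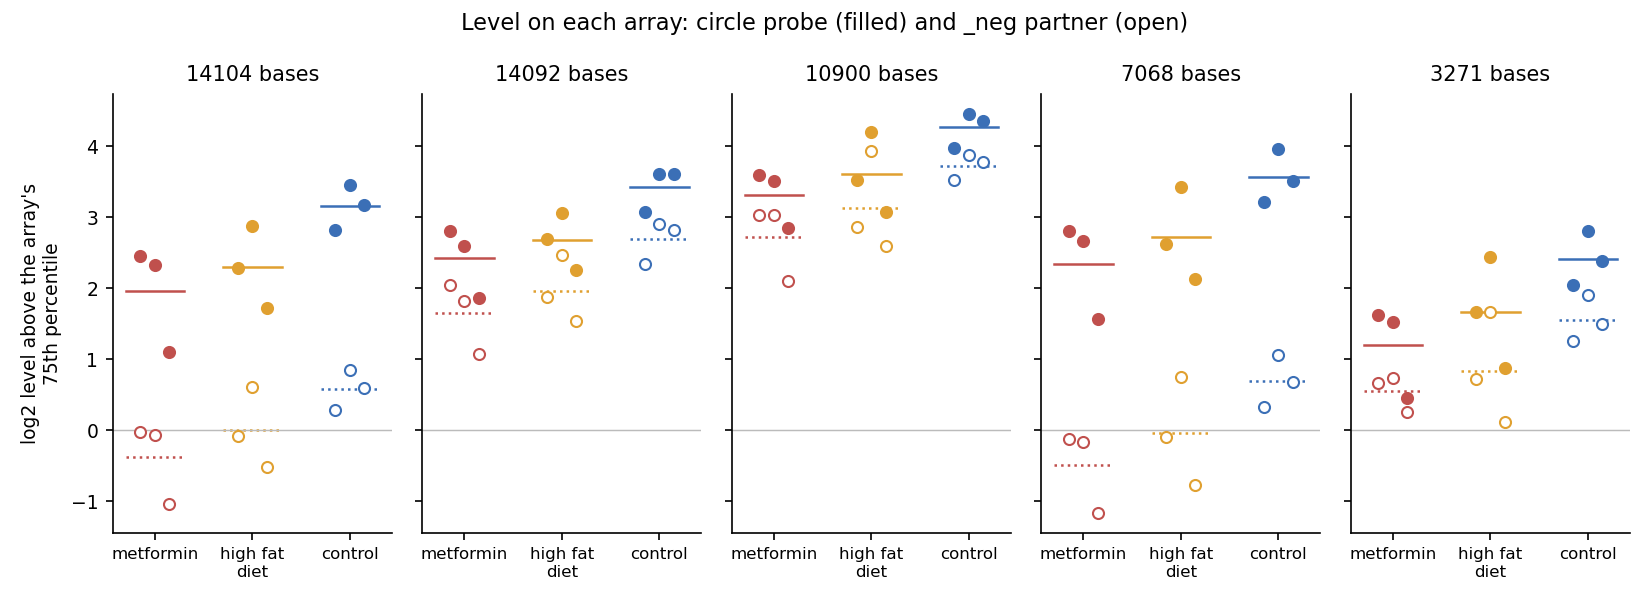
Log2 level above the 75th percentile of the array on each of the 9 arrays, 1 panel for each circle, named by its span. Filled points are circle probes and open points their _neg partners, in replicate order within metformin (red), high fat diet (orange) and control (blue); solid and dotted lines are the group means. Metformin replicate 3 is the lowest filled point in every panel; among the open points it is lowest in all but the 3271 base panel, where high fat diet replicate 3 is lowest at 0.122.

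Metformin and control differed most. All 5 circles were lower with metformin, by a median log2 difference of -1.19, which puts the median circle at 43.7% of its control level, against a median of -0.03 over all circRNAs tested. The differences were -1.19 ± 0.356 for the 14104 base circle, -1.01 ± 0.265 for the 14092 base circle and -0.95 ± 0.277 for the 10900 base circle. They were -1.22 ± 0.363 for the 7068 base circle and -1.20 ± 0.385 for the 3271 base circle (SE of the limma fit, n = 3 arrays per group). This SE pools the spread over all 3 groups and draws it toward that of all circRNAs. For these 5 circles, which varied more than most, that made the SE smaller. In all 5 circles every metformin array lay below every control array, as did 6.88% of the circRNAs with a value on all 6 arrays. All 5 also had an unadjusted p under 0.05 in limma. So did 5.07% of the 25763 circRNAs tested, counting both directions, and 3.43% counting only those that were lower. After Benjamini-Hochberg adjustment over those circRNAs none of the 5 passed a threshold of 0.05 (limma, adjusted p = 0.718 for the 14092 base circle and 0.855 for the others), and none of all circRNAs did (0%; 1307 had an unadjusted p under 0.05). The 5 circles share an end, a locus and the same pools, and are not independent of each other.

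Metformin replicate 3, the array on the second slide, carried much of this difference. Without it the median difference was -0.76, and the 5 circles lay between -0.83 and -0.71. On that array 69.4% of all spots were well above background, the lowest share of the 9, followed by high fat diet replicate 2 at 71.7% and by 77.0% to 84.2% on the others. The circles were at their lowest on the first of these arrays and at their highest among fat-fed pools on the second, and the part of this share in the levels was not tested. No column of the first slide held both metformin and control arrays, since the 3 controls lay in column 1 and metformin replicates 1 and 2 in column 2. With the column number as a covariate the median difference was -1.57. That covariate had no term for the slide and grouped metformin replicate 3 with the column 1 arrays of the first slide. Slide and column were therefore not separated in it.

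High fat diet and control showed the same direction with more overlap. All 5 circles had lower means on the high fat diet, with a median log2 difference of -0.76 against -0.06 over all circRNAs tested, so that the median circle stood at 59.3% of its control level. The differences were -0.86 ± 0.356 (SE) for the 14104 base circle, -0.76 ± 0.265 for the 14092 base circle, -0.66 ± 0.277 for the 10900 base circle, -0.83 ± 0.363 for the 7068 base circle and -0.74 ± 0.385 for the 3271 base circle. An unadjusted p under 0.05 was reached by 4 of the 5 in limma, all but the 3271 base circle. It was reached by 7.25% of all circRNAs tested, counting both directions, and by 5.18% counting only those that were lower. All high fat diet arrays lay below all controls in 1 of the 5, against 9.0% of circRNAs with a value on all 6 arrays. None passed after adjustment (limma, adjusted p = 0.563 to 0.733), nor did any of the 25777 circRNAs tested (0%; 1868 had an unadjusted p under 0.05).

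The size of this difference varied with the arrays in it. With high fat diet replicate 2 left out its median was -1.13, and with replicate 3 of that group left out -0.53. Leaving out control replicate 1 or 2 gave -0.93 or -0.63. The number of circles with an unadjusted p under 0.05 was 0 with control replicate 2, control replicate 3 or high fat diet replicate 3 left out, where 5.13%, 3.51% and 4.75% of all circRNAs were lower at that threshold. It was 1 when high fat diet replicate 1 was left out, where 8.22% were. In the column shared by the 3 controls and high fat diet replicate 1, the median difference was -0.74, with 1 high fat diet array behind it. With the same column covariate, again without a term for the slide, it was -1.11.

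Metformin and high fat diet alone were compared to ask what the drug added on the same food. The 5 circles had lower means with metformin, by -0.46 to -0.25 with a median of -0.34 (0.03 over all circRNAs tested), and each difference was close to its SE, from -0.25 ± 0.265 for the 14092 base circle to -0.46 ± 0.385 for the 3271 base circle. No circle had arrays that did not overlap between these groups (2.67% of circRNAs with a value on all 6 arrays lay lower without overlap) and none had an unadjusted p under 0.05 (limma; 1.58% of 25828 circRNAs tested were lower at that threshold and 3.90% differed in either direction). The adjusted p was 0.969 for all 5, and no circRNA tested passed (0%; 1007 had an unadjusted p under 0.05). The difference rested on single arrays. Its median was 0.0081 without metformin replicate 3, and leaving out high fat diet replicate 2 or 3 gave -0.044 or -0.62. Among the 4 arrays of column 2 on slide 1, 2 from each group, the circles stood between -0.089 and 0.090 with a median of -0.043. The 2 comparisons with control share the control arrays, and this comparison shares its arrays with both.

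**Figure D3:**
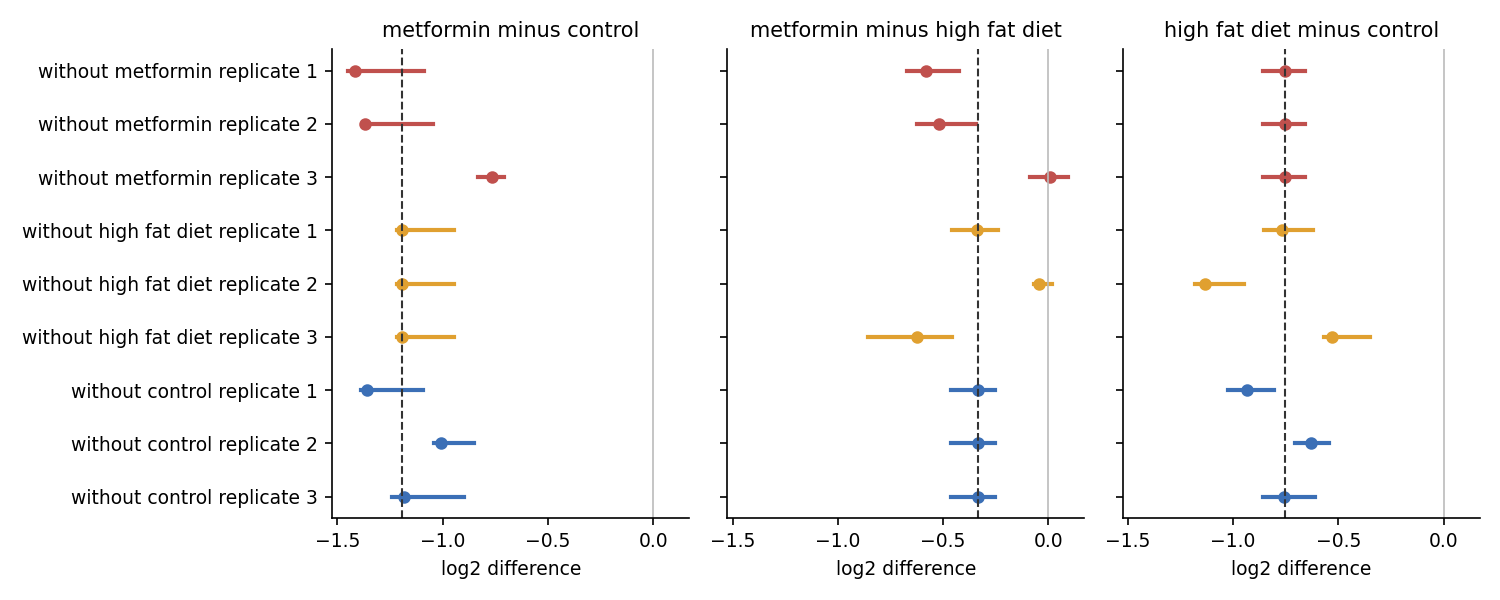
Median log2 difference over the 5 circles (points) and its range over them (bars) with each array left out in turn, coloured by the group of the array left out (metformin red, high fat diet orange, control blue); the dashed line is the median with all arrays. Metformin minus control stays between -1.42 and -0.76, while metformin minus high fat diet runs between -0.62 and 0.0081.

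The partner probes moved with the circles. The 5 partners were lower with metformin than in controls by -1.18 to -0.96. All metformin arrays lay below all controls in 5 of 5 (5.77% of partner probes with a value on all 6 arrays). An unadjusted p under 0.05 was found in 5 of 5 (limma, adjusted p = 0.584 to 0.686). Of 21979 partner probes tested, 2.94% were lower at that unadjusted threshold. On the high fat diet the partners stood between -0.73 and -0.58 relative to control, with an unadjusted p under 0.05 in 2 of 5 (4.89% of partner probes) and no partner free of overlap (8.86%). Metformin minus high fat diet gave -0.45 to -0.28, with 0 of 5 at an unadjusted p under 0.05 (1.18%) and 0 of 5 without overlap (1.88%). In each comparison the median difference of the partners was close to that of the circles, at -1.003 against -1.19 for metformin minus control, -0.72 against -0.76 for high fat diet minus control, and -0.38 against -0.34 for metformin minus high fat diet.

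The log2 ratio of circle to partner differed less between groups than the levels did. Its median difference over the 5 circles was -0.04 for metformin minus control, -0.06 for high fat diet minus control and 0.06 for metformin minus high fat diet, and no ratio passed the threshold in any comparison (limma, adjusted p = 0.838 to 0.999; 0% of circRNAs passed). An unadjusted p under 0.05 for a lower ratio was found in 0 of 5 for metformin minus control (4.17% of circRNAs), 1 of 5 for high fat diet minus control (2.49%) and 0 of 5 for metformin minus high fat diet (3.17%, with 0 of 5 free of overlap against 5.48%). The 14092 base circle had the steadiest ratio, with a difference of 0.04 ± 0.0951 (SE) between metformin and control while its level differed by -1.01. The 14104 base circle differed from the others in overlap. Its ratio was 2.47, 2.40 and 2.14 with metformin, 2.37, 2.27 and 2.24 on the high fat diet, and 2.54, 2.61 and 2.58 in controls. All fat-fed pools lay below all controls, for metformin minus control by -0.24 ± 0.111 (adjusted p = 0.838) and for high fat diet minus control by -0.28 ± 0.111 (adjusted p = 0.952). It was the 1 circle of the 5 without overlap in either comparison, where 8.19% and 6.18% of all circRNAs with a value on all 6 arrays had lower ratios without overlap. The 3271 base circle had a ratio of 0.199 in metformin replicate 3, against 0.754 to 0.963 on the other 8 arrays.

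**Figure D4:**
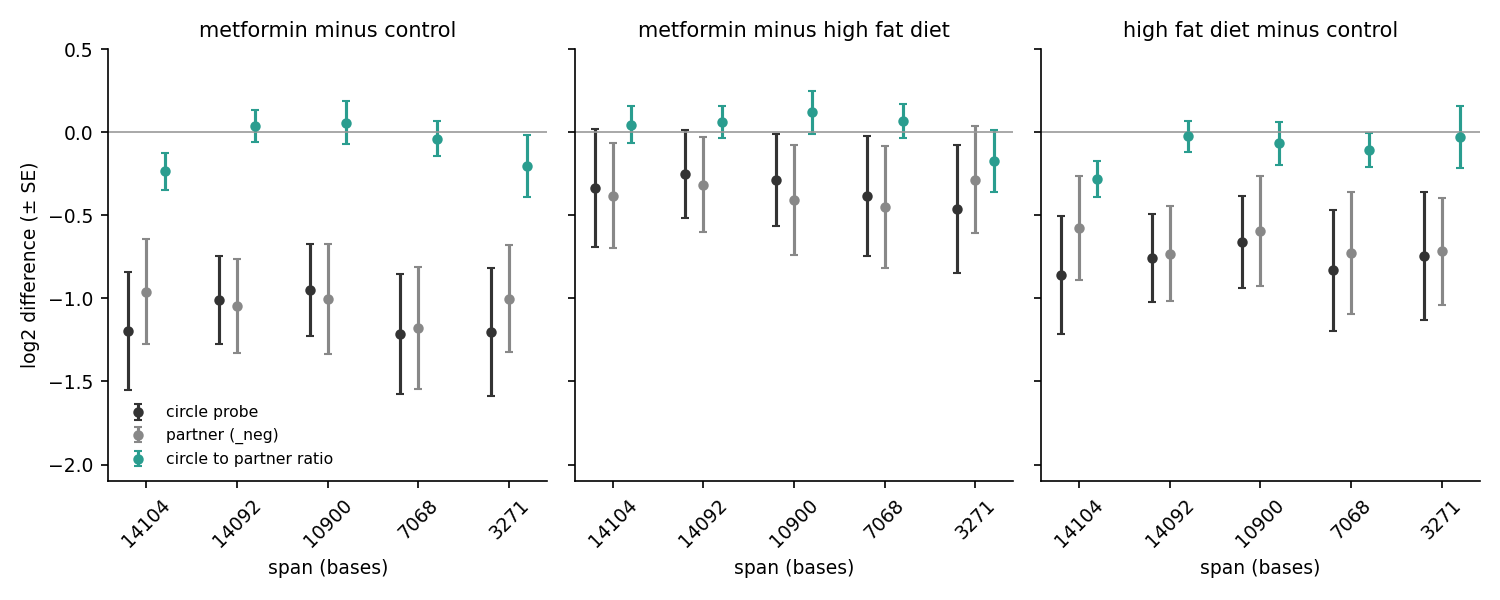
Log2 differences (points, with bars for the SE of the limma fit) of the circle probe (black), its partner probe (grey) and the ratio of circle to partner (green) for each circle, named by span, in the 3 comparisons. Black and grey points lie together below 0 and green points lie near 0, lowest at -0.28 for the 14104 base circle between high fat diet and control.

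Circles of the same locus differed in how far their signal stood above that of their partners, a ratio that also holds any difference in affinity between the 2 probes. The 7068 base circle exceeded its partner 7.07-fold and the 14104 base circle 5.28-fold (means of 9 log2 ratios), more than 83.6% and 78.1% of the circRNAs that passed the filter. The 14092, 10900 and 3271 base circles exceeded theirs 1.67-fold, 1.45-fold and 1.71-fold, at or below the middle of all circRNAs, since 45.3%, 39.02% and 46.4% had smaller ratios. All 5 circles were brighter than their partners on every array. The 14104 and 14092 base circles, whose starts differ by 12 bases, thus had ratios of 5.28-fold and 1.67-fold.

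The 5 circles varied between pools of the same group more than most circRNAs, and they varied together. The SD within groups was 0.410 to 0.628 on the log2 scale, against a median of 0.201 over all circRNAs that passed the filter. It exceeded that of 98.6% to 99.9% of the 2711 other circRNAs whose mean level fell in the range of these 5. The deviations of the circles from their group means correlated over the 9 arrays at 0.947 to 0.989 among the 10 pairs (Pearson), with no group difference left in them. All pairs share arrays and pools, so this is a description of these arrays. With their own partners the circles correlated at 0.931 to 0.990, against a median of 0.560 over 23933 circRNAs, of which 92.8% were below the lowest of the 5. Those circRNAs were not matched to the 5 circles in level or spread.

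Other groups of circles that share an end or a start served for comparison. There were 17 other groups of 5 or more such circles with at least 3 circles measured on all arrays. Their median pairwise correlation ran between -0.29 and 0.952 with a middle value of 0.396, and none exceeded the median of 0.972 found for the Cyp2c70 interval. Their median SD within groups was 0.0871 to 1.64, and 1 of the 17 had a larger one than the 0.576 of the Cyp2c70 interval. That group, with a shared end at 76719896 on chromosome 2, was also the one with the correlation of 0.952. The only other group of like or larger spread thus varied together nearly as closely. No test was made of these ranks.

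**Figure D5:**
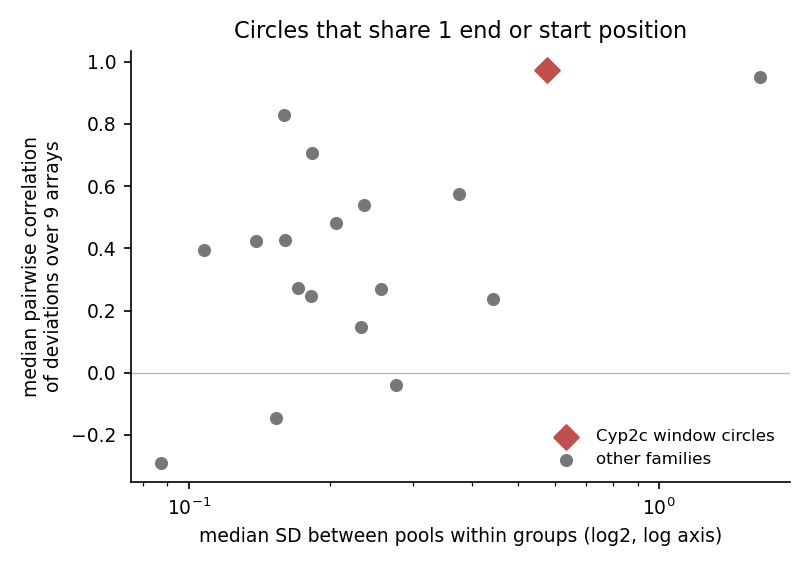
Median pairwise correlation of deviations from the group means over 9 arrays, against the median SD within groups (log2, logarithmic axis), for groups of 5 or more circles that share an end or a start. The Cyp2c70 interval (diamond) stands at a correlation of 0.972 and an SD of 0.576. The other 17 groups (grey points) lie at lower correlations, the closest at 0.952 with an SD of 1.64.

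Among 24541 other circRNAs measured on all arrays, 5 followed the mean level of the 5 circles with a Pearson correlation above 0.95 over the 9 arrays, and 50 above 0.9. The closest were Fan_16_148_2037 (0.963), a circle on chromosome 19 from 59096666 to 59109631 (0.959), one on chromosome 2 from 34576088 to 34586200 (0.955), mmu_circ_0003693 (0.954) and one on chromosome 3 from 35681434 to 35688583 (0.951). These circRNAs were picked as the highest of 24541 over the same 9 arrays, and nothing is read from them about shared control. Their differences between metformin and control were smaller than those of the Cyp2c70 interval, at -0.43, -0.26, -0.396, -0.44 and -0.74 in the same order. The circles nearest to the window on the high side stood at -0.04 and -0.11 for metformin minus control, with levels of 0.77 ± 0.0435 with metformin and 0.81 ± 0.0523 in controls (SD, n = 3) for the one from 40386159 to 40402112.

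In the authors' deposited table of log2 values none of the 5 circles stood at the floor on any array. For the 10900 base circle the deposited values were 11.6, 11.3 and 11.2 with metformin, 11.7, 11.4 and 11.04 on the high fat diet, and 11.8, 12.4 and 12.4 in controls. For the 7068 base circle they were 12.2, 12.1 and 11.03 with metformin, 11.97, 12.9 and 11.7 on the high fat diet, and 12.7, 13.3 and 12.9 in controls. The deposited values of both circles were thus lower in every metformin array than in every control array. How many of all circRNAs did the same in the deposited values was not counted, so nothing is read from this. The 3271 base circle had a deposited value of 7.29 in metformin replicate 3, against 9.31 to 11.3 on the other arrays.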

How the data were processed

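Liver circRNAs were measured on 9 one-colour Agilent-format arrays. Per the file headers, the authors extracted spots with Feature Extraction 11.5.1.1 on a grid of build mm9 (10.7 per the submitters' processing notes). The deposited processed intensity is the software's own signal, with a 75th percentile that differs between arrays. The authors' deposited log2 values have a median of 6.51 on each array and a floor of -3.32, and above the floor they follow the rank of the circle's intensity minus that of its partner (Spearman 1.00). The rule behind the floor is not stated in the labels or headers.

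Outlier-flagged and control spots were left out, log2 processed intensities were averaged per probe, and the 75th percentile of each array was subtracted. A circRNA was kept if 1 group or more had it well above background on each of its 3 arrays (25864 kept), and all groups entered a single limma 3.58.1 fit (R 4.3.3, lmFit and eBayes, 6 residual and 5.72 prior degrees of freedom), with Benjamini-Hochberg adjustment over all circRNAs tested in a comparison and a threshold of 0.05. The fit was tested on simulated data with known changes, drawn independently for each circRNA. That check does not bear on circles that vary together or on slide and column. The number of arrays limits the precision. The series text calls the pools biological replicates.

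The window, its members and the gene lists were chosen with earlier results of these data known. All 5 circles in the Cyp2c70 interval are named, with the 5 circRNAs most alike in pattern. The files pair no probe with a host gene, so the lists of bile acid, nuclear receptor and cell type marker genes were not used, and the liver label was not checked against markers. Coordinates are mm9 for circles and GRCm38.p6 for the promoter, which were not converted. Same-numbered replicates deviated with correlations of -0.188 to 0.251, so the numbers were not taken to pair the arrays. The normexp alternatives used the median signal, and they, array weights and the 75th percentile over all spots were chosen after the data were seen.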

Additional observations from a re-analysis of the deposited data

How the results depend on the processing

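None of the 5 circles was called in any comparison under any alternative run, and at most 0.0889% of all circRNAs were (23 of 25864, metformin minus control with the authors' deposited values). The median difference stayed below 0 for metformin minus control and high fat diet minus control in all of them. With each array left out in turn it ran between -1.42 and -0.76 for metformin minus control, -1.13 and -0.53 for high fat diet minus control, and -0.62 and 0.0081 for metformin minus high fat diet. As the log2 ratio of circle to partner, the medians were -0.038 for metformin minus control and -0.065 for high fat diet minus control. The number of circles with an unadjusted p under 0.05 in high fat diet minus control (4) was 1 without a filter (4.22% of all circRNAs lower at that threshold in the same fit), 2 with trend and robust fitting (5.08%), 2 with the authors' deposited values (2.88%), 1 for the ratio (2.49%) and 0 to 5 with arrays left out (3.41% to 8.22%). In metformin minus control (5) it was 4 with the authors' deposited values (2.43%) and 0 for the ratio (4.17%). In metformin minus high fat diet (0) it was 0 to 1 with arrays left out (0.915% to 2.73%).

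Signs turned in metformin minus high fat diet and, for the ratio, in metformin minus control. In metformin minus high fat diet, array weights gave 0.13, 0.059, 0.050, 0.076 and 0.040 for the 14104, 14092, 10900, 7068 and 3271 base circles, and the ratio gave 0.045, 0.062, 0.12 and 0.068 for all but the 3271 base circle. Among the arrays of column 2 on slide 1 the 14104 and 14092 base circles stood at 0.090 and 0.041. With arrays left out the 14104 base circle ran between -0.62 and 0.094, the 14092 base circle between -0.46 and 0.028, the 10900 base circle between -0.55 and 0.016 and the 7068 base circle between -0.68 and 0.0081. The 10900 base circle stood at 0.015 with the authors' values. For metformin minus control the ratio gave 0.038 and 0.057 for the 14092 and 10900 base circles. The cause was not tested. With the replicate block the medians were the same, at -1.19, -0.76 and -0.34, and 5, 5 and 0 circles had an unadjusted p under 0.05 in metformin minus control, high fat diet minus control and metformin minus high fat diet (limma, lowest adjusted p = 0.350), against 3.74%, 5.46% and 1.74% of all circRNAs lower at that threshold and 0, 4 and 0 circRNAs called. The numbers were not taken to pair the arrays, and 3 of 9 arrays deviated most like one of their own number. Normexp on mean signals was not run, since the files used here hold median signals.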
